A study of Mus musculus with 6 samples.

Results

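The genes described here encode the nuclear subunits of the mitochondrial respiratory chain. They were taken by symbol, as those starting with Nduf, Uqcr, Cox4 to Cox8 or Atp5, together with Sdha, Sdhb, Sdhc and Sdhd. Of 91 such symbols, 89 had a mean of at least 10 normalised counts over the 6 libraries and were kept, of 17607 genes in the deposited table. Complex I had 36 genes, complex II 4, complex III 8, complex IV 14 and complex V 15, which makes 77 subunit genes. A further 8 are Ndufaf genes, which encode assembly factors of complex I and stand apart. The remaining 4 (Cox7a2l, Ndufa4, Ndufa4l2 and Atp5s) share a prefix without being counted as structural subunits of the complex that it names. The muscle isoform gene Cox6a2 and Cox7b2 fell under the minimum, with means of 6.25 and 6.81, and the lowest gene kept was Ndufs5 with 37.7.

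Respiratory chain complexes pass electrons from NADH and succinate to oxygen and pump protons across the inner mitochondrial membrane, and complex V, the ATP synthase, uses the proton gradient to make ATP. Most subunits are encoded in the nucleus and imported, while a small set is encoded in mitochondrial DNA. Spiral ganglion neurons, whose axons form the auditory nerve, depend on this ATP to restore the ion gradients that firing runs down.

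RNA sequencing was carried out on auditory nerves of CBA/CaJ mice, an inbred strain whose hearing is kept well into adulthood. There were 3 old mice of 2.5 years and, as controls, 3 young adults of 2 months. Both cochleas of a mouse were pooled into 1 library, so each library is 1 animal. The sex of the animals, and any treatment, are not given in the labels.

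Recovered read totals were 34587978 to 38835751 in the old libraries and 35213213 to 40841478 in the young ones. Schwann cell markers, summed over 10 genes, stood at 422727 to 477415 normalised counts in old nerves and 426310 to 495854 in young nerves, with 1 gene higher and 3 lower. Of 12 neuron markers 4 were lower in old nerves and none higher, and their sum was 239507 to 354612 in old nerves and 397065 to 431627 in young nerves. Snap25 and Nefh, the largest parts of this sum, were not called. Spiral ganglion markers had 3 of 8 genes lower and none higher, and their sum overlapped between the ages. All 12 macrophage markers were higher in old nerves, with a sum of 15398 to 22858 there and 5428 to 7095 in young nerves. Of 11 osteoblast markers 6 were lower. Spp1, which is not specific to bone, made up most of their sum and was not called, and the other 10 summed to 7387 to 12889 in old nerves and 22558 to 28043 in young nerves. Markers of the stria vascularis (2 of 9 higher, 2 lower) summed to 107451 to 120256 in old nerves and 125610 to 136885 in young nerves. The largest part of this sum was Atp1b1, at 41747 to 60164 in old nerves and 68386 to 75345 in young nerves. Atp1b1 and Esrrb were the genes called lower, and Kcnq1 and Slc26a4 those called higher, so the sum does not stand for the whole list. Pericyte and smooth muscle markers had 3 of 10 genes lower, and none of 5 tested erythroid markers was called, although their sum reached 15859 in 1 old library and at most 4319 in young ones. Beside these marker counts stand the shares of all genes tested, 15.9% called higher and 18.7% lower (34.6% in all). The part of these cell types in the results below was not tested, and in bulk tissue fewer cells of a type cannot be told apart from less RNA per cell.

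The nuclear respiratory chain transcripts that passed the test were nearly all slightly more abundant in old nerves. Of the 77 subunit genes 38 were higher, 1 was lower and 38 were not called, at an adjusted p under 0.05 in a limma fit over 15882 genes. Among all genes tested, 15.9% were called higher and 18.7% lower. The median log2 fold change of the subunits, old minus young, was 0.28 (1.21-fold), and that of all genes tested was -0.00. All 3 old libraries lay above all 3 young ones in 52 of the 77 subunit genes and below them in 1, against 25.5% and 26.3% of all genes tested (51.8% in all). Over all 89 genes the counts were 42 higher and 1 lower, and 34.6% of all genes were called in either direction. EdgeR on the recovered reads gave 40 higher and 1 lower, against 16.1% and 18.0% of all genes (34.1% in all). The authors' deposited table has 46 higher and 1 lower at an FDR under 0.05, against 16.8% and 18.7% of its genes (35.5% in all). Upper-quartile scaling gave 55 higher and 1 lower among the 89, and moved the split over all genes to 3439 higher and 2338 lower, against 2524 and 2969 here. Without young 2, 9 subunit genes were higher, and without young 1, young 3 or old 2 there were 20, 22 and 18. Calls over all genes fell as well: without young 2, 1159 were higher and 1430 lower of 16127. The median of the subunits stayed between 0.22 and 0.31 in all 6 fits with 1 library left out. Without both young 1 and old 2, limma called 0 subunit genes in either direction (32 higher and 1 lower at an unadjusted p under 0.05), with a median of 0.28. In that fit 831 of all 15832 genes were higher and 945 lower.

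**Figure D1:**
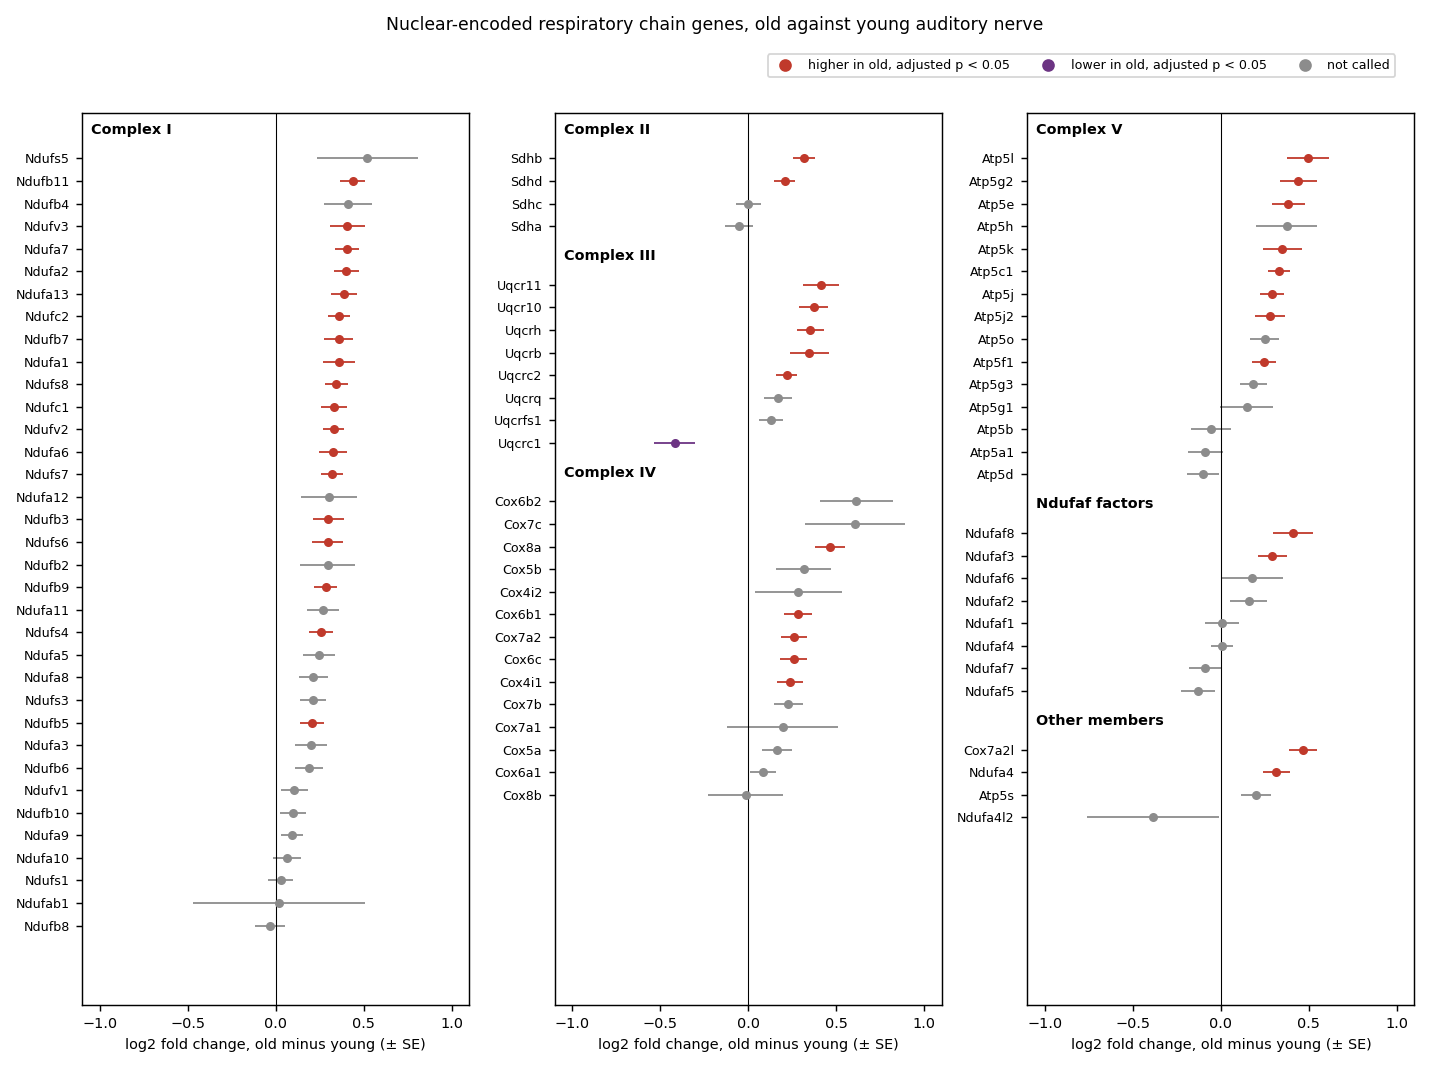
Log2 fold change (old minus young, ± SE, x axis) of the 89 genes except 1 of complex I that was not called, grouped by complex and sorted within it. Points right of 0 are higher in old nerves; 42 passed the test there, and Uqcrc1 in complex III is the 1 called gene on the left.

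These changes moved with transcript length. The 89 transcripts are short, with a median of 745 nt and a range of 315 to 3632 nt, against a median of 2727 nt over the 14896 tested genes with a transcript. Across the 89 genes, Spearman's rho between length and log2 fold change was -0.54, and across the 14896 genes it was -0.36 (a description across genes, which share the same 6 libraries). Of the 45 genes at or under the median length 25 were higher, with a median log2 fold change of 0.30, and of the 44 longer ones 17 were higher and 1 lower, with a median of 0.21. When smooth trends in length and GC content were removed from each library, 2 of the 77 subunit genes were higher (Ndufa13 and Ndufs7) and 2 lower (Uqcrc1 and Ndufb8). In that fit 10.4% of all genes were higher and 13.5% lower (23.8% in all), and the medians were -0.07 in the subunits and -0.04 in all genes. The removal worked over all genes but not within the 89. Among the 89, rho between GC content and log2 fold change was 0.47 with the trends removed, against 0.16 in the deposited values. Over the 14896 genes it was -0.001 with the trends removed. Every rise of these 89 genes given below is a rise in the deposited values, and apart from Ndufa13 and Ndufs7 none of them passed with the trends removed. The log2 fold changes of 21 of the 42 called rises were then below 0. With trends fitted on each gene's longest transcript, Ndufa13 and Atp5g2 were called higher, 28 of the 42 were below 0, and Cox6c, Ndufb3 and Ndufb5 of these were called lower. Whether the length trend comes from the tissue or from the libraries was not tested.

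**Figure D2:**
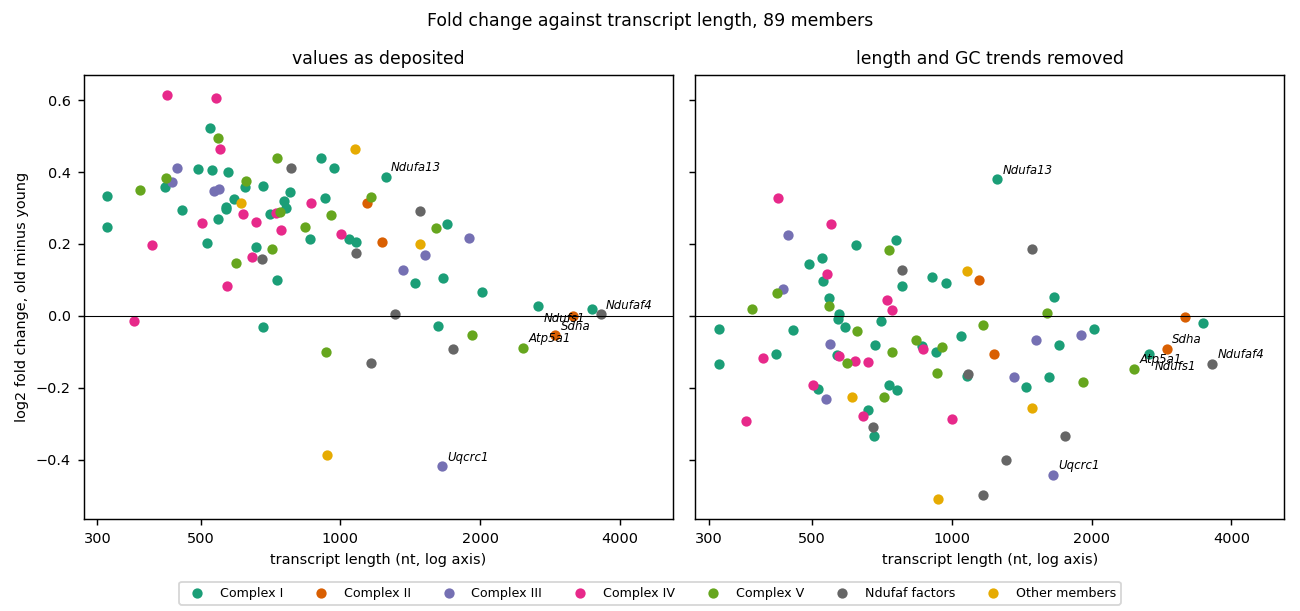
Log2 fold change (old minus young, y axis) of the 89 genes against transcript length in nt (log axis), in the deposited values on the left and with length and GC trends removed on the right. On the left shorter transcripts tend to sit higher (rho -0.54); on the right the points centre near 0 (median -0.08), with Ndufa13 at 0.38 and Uqcrc1 at -0.44.

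Promoter sequences are shown for 4 genes that the results turn on: the called fall (Uqcrc1), the most abundant complex III transcript (Uqcrh), the complex IV gene with the smallest adjusted p (Cox8a) and a gene still higher with the trends removed (Ndufs7). They come from RefSeq on GRCm38.p6 and hold 250 bases before the annotated start and 50 after it, in the direction of transcription. Capitals mark matches, on either strand, to GCGCANGCG for the factor NRF1, CCGGAAG for ETS factors such as GABP, or AAGATGGCG for YY1. The windows are chr9:108936398-108936697 on the plus strand for Uqcrc1, chr4:116075021-116075320 on the minus strand for Uqcrh, chr19:7217567-7217866 on the minus strand for Cox8a, and chr10:80249199-80249498 on the plus strand for Ndufs7.
Uqcrc1: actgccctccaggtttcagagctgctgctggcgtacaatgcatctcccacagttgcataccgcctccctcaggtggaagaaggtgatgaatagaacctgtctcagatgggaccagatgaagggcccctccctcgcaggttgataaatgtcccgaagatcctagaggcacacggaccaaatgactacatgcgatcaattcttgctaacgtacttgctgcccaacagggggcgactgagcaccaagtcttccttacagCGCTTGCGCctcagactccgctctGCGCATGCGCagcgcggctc
Uqcrh: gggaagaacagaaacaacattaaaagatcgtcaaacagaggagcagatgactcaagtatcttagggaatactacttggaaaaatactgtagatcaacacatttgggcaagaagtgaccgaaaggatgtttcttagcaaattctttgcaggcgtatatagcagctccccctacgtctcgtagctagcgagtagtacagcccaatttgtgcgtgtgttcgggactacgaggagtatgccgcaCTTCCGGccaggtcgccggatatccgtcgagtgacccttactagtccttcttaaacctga
Cox8a: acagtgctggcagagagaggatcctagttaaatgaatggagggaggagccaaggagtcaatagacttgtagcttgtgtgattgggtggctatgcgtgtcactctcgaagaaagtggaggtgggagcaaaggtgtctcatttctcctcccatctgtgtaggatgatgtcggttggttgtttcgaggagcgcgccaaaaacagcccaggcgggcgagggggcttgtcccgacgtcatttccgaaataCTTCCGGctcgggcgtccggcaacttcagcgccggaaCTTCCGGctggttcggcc
Ndufs7: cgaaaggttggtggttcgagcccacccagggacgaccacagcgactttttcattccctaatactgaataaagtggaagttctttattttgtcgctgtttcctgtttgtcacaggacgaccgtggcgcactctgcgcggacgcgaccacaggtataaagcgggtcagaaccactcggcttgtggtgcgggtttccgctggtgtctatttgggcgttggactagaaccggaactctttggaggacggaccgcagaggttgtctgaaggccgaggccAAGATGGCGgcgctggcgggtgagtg
Uqcrc1 has 3 NRF1 matches, 2 of them overlapping on opposite strands, Uqcrh 1 ETS match, Cox8a 2 ETS matches and Ndufs7 1 YY1 match.

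Promoters were matched for 73 of the 89 genes, and 39 of them held at least 1 of the 3 motifs. NRF1 and GABP are background regulators of respiratory chain genes, which is why their motifs were counted. The NRF1 motif stood in 22 of 73 promoters (30.1%), against 13.4% of the promoters of all tested genes and 7.03% of all promoters. By call it was in 8 of 35 genes higher in old nerves, in the 1 lower gene and in 13 of 37 genes not called. The ETS motif stood in 18 of 73 (24.7%, against 17.4% of tested genes and 9.93% of all), namely in 13 of the 35 higher genes and 5 of the 37 not called. For YY1 the count was 8 of 73 (10.96%, against 3.01% of tested genes and 1.64% of all), with 7 among the higher genes and 1 among those not called. No 2 matches of different motifs overlapped in these promoters. A match to these letters is a description of the sequence, not a bound site.

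Complex I takes electrons from NADH and passes them to ubiquinone. Of its 36 nuclear genes 18 were higher in old nerves and none lower, with a median log2 fold change of 0.30 and a range of -0.03 to 0.52. The 7 core genes, which carry the electron path, had 3 called higher and a median of 0.21, and the 29 accessory genes had 15 and a median of 0.30. Without young 2 the complex had 8 higher genes, and without old 2 or young 3 it had 11.

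Ndufb11, an accessory subunit of the membrane arm, had 2932, 3018 and 2916 normalised counts in old nerves, against 2188, 2024 and 2341 in young nerves. The groups were well apart, and the log2 fold change was 0.44 ± 0.07 (SE, adjusted p = 0.00706). Ndufa7, another accessory subunit, had 2801, 2692 and 2846 counts in old nerves, against 2082, 1976 and 2240 in young nerves (0.41 ± 0.07, adjusted p = 0.00765). Ndufc2, also of the membrane arm, had 2553, 2613 and 2520 counts in old nerves, against 2036, 1897 and 2051 in young nerves (0.36 ± 0.06, adjusted p = 0.00775). Ndufb11 overlaps Rbm10 on the other strand. In all 3 genes the lowest old library exceeded the highest young one, and each call held with any 1 library left out. With the length and GC trends removed their log2 fold changes were 0.11, 0.10 and -0.08, none called.

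Ndufa13 and Ndufs7 were picked for description because they were called in both fits. Ndufa13, also known as GRIM-19, had 5045, 5336 and 4926 counts in old nerves, against 4100, 3591 and 4030 in young nerves. Its log2 fold change was 0.39 ± 0.07 (adjusted p = 0.00980), and 0.38 with the trends removed (adjusted p = 0.0175). Ndufs7, a core subunit that holds the last iron-sulphur cluster before ubiquinone, had 3984, 4122 and 4198 counts in old nerves, against 3374, 3129 and 3362 in young nerves. For this gene the values were 0.32 ± 0.06 (adjusted p = 0.0101) and 0.21 with the trends removed (adjusted p = 0.0357). Neither gene's groups overlapped. Trends fitted on each gene's longest transcript kept the call of Ndufa13 and not that of Ndufs7. Ndufa13 overlaps Tssk6 on the other strand, and reads of such pairs cannot be separated if the libraries do not mark strand.

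Ndufs1, the largest subunit of the complex, had 9228, 9995 and 10183 counts in old nerves, against 9897, 9623 and 9310 in young nerves (0.03 ± 0.07, adjusted p = 0.782). Old and young libraries were interleaved, and the gene overlaps Ino80dos on the other strand. Ndufb8, an accessory subunit, was also interleaved, at 4247, 4875 and 4813 counts in old nerves, against 4922, 4337 and 4975 in young nerves (-0.03 ± 0.09, adjusted p = 0.808). With the trends removed Ndufb8 was called lower, at -0.33 (adjusted p = 0.0210). Per kilobase of transcript Ndufa5, an accessory subunit of the matrix arm, was the most abundant gene of the complex, at 8821 in old nerves and 7434 in young nerves. That rank rests on a transcript of 315 nt: on its longest transcript, of 875 nt, Ndufa5 stood at 3176 in old nerves and 2676 in young nerves, under Ndufb9 at 7794 in old nerves and 6410 in young nerves. Its log2 fold change of 0.25 ± 0.09 missed the threshold (adjusted p = 0.0694).

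The assembly factors of complex I, encoded by Ndufaf genes, insert cofactors and hold intermediates together without staying in the finished enzyme. Of 8 genes 2 were higher and none lower, with a median log2 fold change of 0.08. Ndufaf8 had 422.9, 402.3 and 368.4 counts in old nerves, against 284.9, 288.0 and 324.8 in young nerves (0.41 ± 0.11, adjusted p = 0.030). Ndufaf3 had 783.4, 824.6 and 807.5 counts in old nerves, against 633.7, 641.9 and 698.1 in young nerves (0.29 ± 0.08, adjusted p = 0.0306). Both sets of libraries were separate, but each call was lost when any library other than old 3 was left out. Ndufaf5, which modifies an arginine of the Ndufs7 protein, had 1040, 1183 and 1244 counts in old nerves, against 1255, 1180 and 1359 in young nerves (-0.13 ± 0.10, adjusted p = 0.315). Ndufaf7, a methyltransferase, had 769.6, 800.9 and 928.4 counts in old nerves, against 887.6, 875.8 and 889.8 in young nerves (-0.09 ± 0.09, adjusted p = 0.472). The groups overlapped in both, and in Ndufaf2, whose log2 fold change was 0.16 ± 0.10 (adjusted p = 0.272). With the trends removed no factor was called higher and Ndufaf5 (-0.50, adjusted p = 0.0212) and Ndufaf1 (-0.40, adjusted p = 0.0321) were called lower. None of 10 other complex I assembly genes, such as Acad9, Ecsit and Timmdc1, was called; 1 of the 10 had an unadjusted p under 0.05 in limma. Removal of the trends left 3 of them called lower, Ecsit (-0.35, adjusted p = 0.0451), Timmdc1 (-0.41, adjusted p = 0.0263) and Dmac2 (-0.27, adjusted p = 0.0435).

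Complex II, succinate dehydrogenase, belongs both to the citric acid cycle and to the chain, and all 4 of its genes are nuclear. The iron-sulphur subunit gene Sdhb had 6498, 6440 and 6500 counts in old nerves, against 5457, 4912 and 5270 in young nerves (0.32 ± 0.06, adjusted p = 0.0113). Sdhd, a membrane anchor, had 5752, 6028 and 5752 counts in old nerves, against 5083, 4947 and 5168 in young nerves (0.21 ± 0.06, adjusted p = 0.0318). Both genes separated the ages. Sdhb lost its call without young 2, and Sdhd lost it without any library other than old 3. The other two genes were not called. Sdha, the flavoprotein that oxidises succinate, had 18937, 20899 and 21291 counts in old nerves, against 21625, 21351 and 20411 in young nerves (-0.05 ± 0.08, adjusted p = 0.629). Sdhc, the second anchor, had 2190, 2460 and 2477 counts in old nerves, against 2377, 2380 and 2361 in young nerves (-0.00 ± 0.07, adjusted p = 0.998). The transcripts of the called pair are 1142 and 1231 nt long and those of the other two 2900 and 3171 nt, and with the trends removed none of the 4 was called. Of 4 assembly genes of complex II 1 was called, Sdhaf4, which was higher (0.33 ± 0.08, adjusted p = 0.0244) but kept its call in 1 of the 6 fits with a library left out and turned to -0.17 with the trends removed (adjusted p = 0.208).

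Complex III hands electrons from ubiquinol to cytochrome c. It was the 1 complex with calls in both directions, 5 genes higher and 1 lower of 8. Uqcrc1, a core protein of the matrix side, was the called fall, at 6758, 8186 and 9352 counts in old nerves, against 10701, 10712 and 10763 in young nerves. The young libraries were nearly identical, the old ones spread widely and all lay below them. Its log2 fold change was -0.42 ± 0.12 (adjusted p = 0.0304), and with the trends removed it was -0.44 (adjusted p = 0.0226). The adjusted p was above the threshold without old 2 or any single young library (up to 0.0896), and edgeR on the recovered reads kept the call. The summed neuron markers had the same order among old nerves, at 239507, 296468 and 354612 counts, against 431627, 402240 and 397065 in young nerves, and their part in this result was not tested. In the authors' deposited table Uqcrc1 has a fold change of -1.32 (a fall, written as the negative inverse) with an FDR of 0.00712. The gene lies at chr9:108936648-108949641 on the plus strand of mm10.

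Uqcrc2, the other core protein, was called higher in the deposited values. Uqcrc2 had 12870, 12879 and 12915 counts in old nerves, against 11264, 11031 and 10953 in young nerves (0.22 ± 0.06, adjusted p = 0.0297), and these groups did not overlap. With the trends removed it stood at -0.05 (adjusted p = 0.606), on the same side of 0 as Uqcrc1. Uqcrc1 counts were 52.5%, 63.6% and 72.4% of Uqcrc2 counts in old nerves, against 95%, 97.1% and 98.3% in young nerves. This ratio, chosen after the values were seen, separated the ages without overlap. Uqcrc2 overlaps Pdzd9 on the other strand, and its call was lost without any library other than old 3.

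Small subunits made up the other calls of complex III. Uqcrh, the hinge protein near cytochrome c1, had 7604, 7553 and 7654 counts in old nerves, against 5882, 5482 and 6553 in young nerves (0.35 ± 0.08, adjusted p = 0.0149). Per kilobase it was the most abundant gene of the complex, at 13901 in old nerves and 10919 in young nerves. Uqcr10 had 3176, 3211 and 3002 counts in old nerves, against 2426, 2200 and 2644 in young nerves (0.37 ± 0.08, adjusted p = 0.0144). For Uqcr11 the counts were 642.8, 635.8 and 612.1 in old nerves, against 425.0, 486.6 and 513.1 in young nerves (0.41 ± 0.10, adjusted p = 0.0207). No old library fell within the young range in any of the 3. Uqcr10 lost its call without young 2 and Uqcrh without either young 1 or young 2, and Uqcr11 kept it in the fits that left out old 3 or young 3. Uqcrfs1, the Rieske iron-sulphur protein, was not called (0.13 ± 0.07, adjusted p = 0.176). Cyc1, the cytochrome c1 gene that lies outside the symbol rule, had 5764, 6763 and 7505 counts in old nerves, against 7842, 7919 and 7825 in young nerves. Its old libraries all lay below the young ones, but the log2 fold change of -0.24 ± 0.10 missed the threshold (adjusted p = 0.0959), and it passed with the trends removed (-0.35, adjusted p = 0.0355). Among 6 assembly genes of complex III, Uqcc2 was higher (0.35 ± 0.07, adjusted p = 0.0121) and Bcs1l, the chaperone that inserts the Rieske protein, was lower (-0.33 ± 0.11, adjusted p = 0.0495). Uqcc2 lost its call without young 2, and Bcs1l lost it without any library other than old 2. Uqcc2 was not called with the trends removed (0.14, adjusted p = 0.201), and Bcs1l stayed lower (-0.54, adjusted p = 0.0134).

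**Figure D3:**
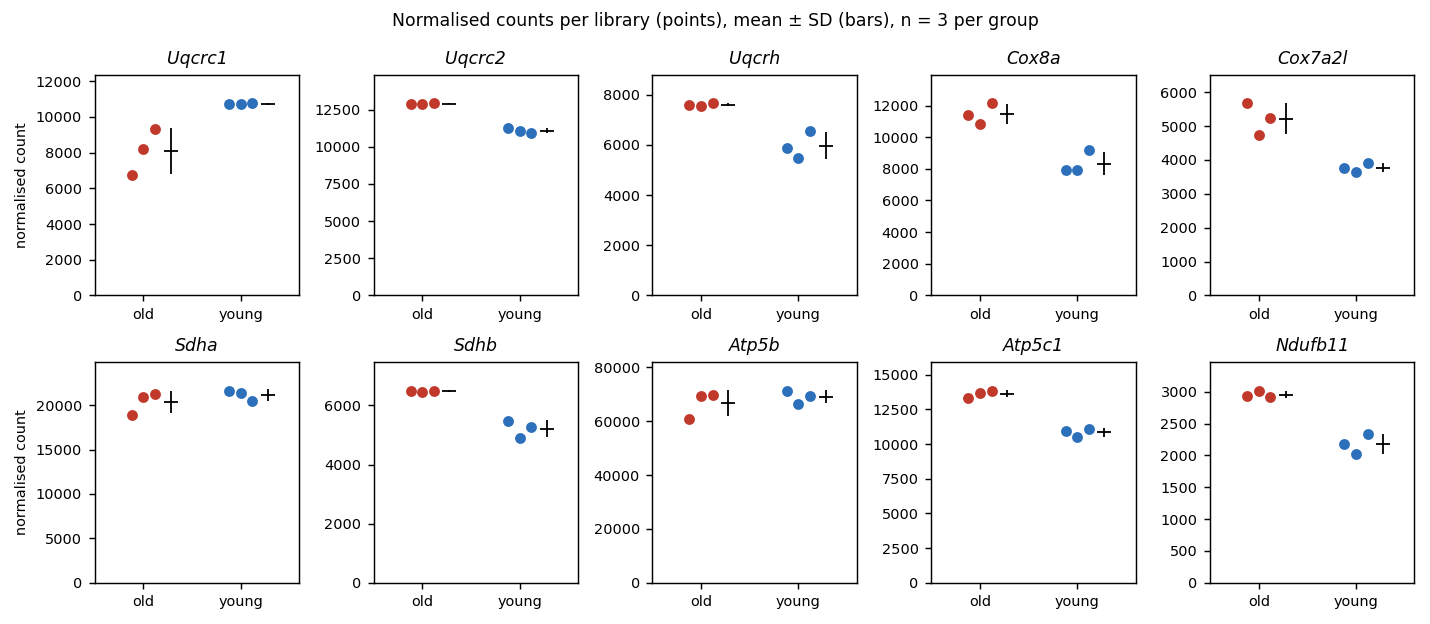
Normalised counts (y axis, from 0) of 10 genes in each library, old left of young, with mean ± SD bars (n = 3 each). Uqcrc1 lies lower in all 3 old libraries while Uqcrc2, Uqcrh, Cox8a, Cox7a2l, Sdhb, Atp5c1 and Ndufb11 lie higher; Sdha and Atp5b overlap.

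Complex IV, cytochrome c oxidase, reduces oxygen. Of its 14 nuclear genes 5 were higher in old nerves and none lower, with a median log2 fold change of 0.26. Cox8a, a small membrane subunit, had 11372, 10858 and 12138 counts in old nerves, against 7896, 7911 and 9165 in young nerves. The groups were clearly apart, with a log2 fold change of 0.46 ± 0.09 (adjusted p = 0.00884), and the call held with any 1 library left out. With the trends removed it stood at 0.26 (adjusted p = 0.0620). Cox8a lies at chr19:7215158-7217616 on the minus strand.

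Other called genes of complex IV were less firm. Cox6b1, which faces cytochrome c, had 7723, 8216 and 7979 counts in old nerves, against 6979, 5927 and 6782 in young nerves (0.28 ± 0.08, adjusted p = 0.0312). Cox7a2 had 5762, 6161 and 6007 counts in old nerves, against 5166, 4576 and 5257 in young nerves (0.26 ± 0.07, adjusted p = 0.0336). Cox4i1, the isoform of subunit 4 found in most tissues and per kilobase the most abundant gene of the complex, had 15446, 16876 and 16794 counts in old nerves, against 14581, 13390 and 13644 in young nerves (0.24 ± 0.07, adjusted p = 0.0447). Old and young libraries did not overlap in these 3 genes, or in Cox6c. Cox4i1 kept its call with 1 of the 6 libraries left out, Cox6b1 with 2, Cox6c with 1 and Cox7a2 with none.

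Several subunits of complex IV have a second isoform known from other tissues, and these isoforms had fewer counts than the main ones here. The percentages below are of counts, without a correction for length. Per kilobase, Cox8b averaged 8.45% of Cox8a in old nerves and 11.7% in young nerves, and Cox6b2 averaged 6.33% and 4.92% of Cox6b1. Cox4i2, known from lung and from low oxygen, stood at 0.45%, 0.35% and 0.47% of Cox4i1 counts in old nerves, against 0.29%, 0.47% and 0.48% in young nerves. Cox8b, a heart and muscle isoform, reached 4.72%, 4.81% and 7.07% of Cox8a in old nerves, against 6.73%, 9.13% and 7.05% in young nerves. Both ratios overlapped between the ages. So did Cox7a1, another muscle isoform, at 3.16%, 4.82% and 2.17% of Cox7a2 in old nerves, against 4.19%, 2.99% and 3.02% in young nerves. For Cox6b2, known from testis, the ratio to Cox6b1 was 4.02%, 5.60% and 3.38% in old nerves, against 3.25%, 3.32% and 3.54% in young nerves, again with overlap. Its own counts of 310.8, 460.2 and 269.8 in old nerves, against 226.6, 196.6 and 240.1 in young nerves, were separate but not called (0.61 ± 0.21, adjusted p = 0.0579). The muscle isoform Cox6a2 was the 1 pair without overlap, at 0.101%, 0.172% and 0.105% of Cox6a1 in old nerves, against 0.0247%, 0.0421% and 0.0447% in young nerves, from at most 13.3 normalised counts. Among skeletal muscle markers, Acta1 and Ckm were at most 25.6 and 12.6 counts in any library. Atp2a1 stood at 86.1 to 176 counts and Mb at 25.4 to 96.8, and neither was called. Actn3, 1 of 7 tested muscle markers, was called higher (1.14 ± 0.21, adjusted p = 0.00883), and the other 6 were not called. Of the brown fat markers 1 was tested and not called, and Ucp1 was at most 5.29 counts. Cox6a1 itself was not called (0.08 ± 0.07, adjusted p = 0.408).

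Complex IV needs many dedicated assembly factors. Of 21 tested genes 5 were higher (Surf1, Coa5, Cox17, Cox16 and Pet100) and 2 lower (Taco1 and Cox10), a share near the 34.6% of all genes that were called. Surf1 had 2444, 2417 and 2218 counts in old nerves, against 1708, 1874 and 1775 in young nerves (0.40 ± 0.07, adjusted p = 0.00806). Taco1, which helps translate a mitochondrially encoded subunit, had 514.8, 507.7 and 536.7 counts in old nerves, against 684.5, 682.2 and 680.5 in young nerves (-0.39 ± 0.08, adjusted p = 0.0117). Each of these separated the ages, and Taco1 lost its call without young 2 (adjusted p = 0.0504). Of the 6 fits with a library left out, Surf1 kept its call in 6, Coa5 and Cox17 in 4, Cox16 in 3, Cox10 in 2 and Pet100 in 1. The median log2 fold change of the 21 genes was 0.08. With the trends removed 1 gene was higher (Coa5, 0.26, adjusted p = 0.0220) and 4 were lower, Taco1 among them (-0.59, adjusted p = 0.00919).

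Complex V consists of a catalytic F1 head, a rotating ring of c subunits, and stalk and membrane subunits. Of 15 genes 8 were higher and none lower, with a median log2 fold change of 0.28. The F1 part, taken as Atp5a1, Atp5b, Atp5c1, Atp5d and Atp5e, had 2 of 5 genes higher (Atp5c1 and Atp5e) and a median of -0.05. The c ring had 1 of 3 genes higher, and the other stalk and membrane genes had 5 of 7 with a median of 0.29. Atp5b, the catalytic beta subunit and per kilobase the most abundant of all 89 genes, had 61019, 69398 and 69708 counts in old nerves, against 71375, 66547 and 69527 in young nerves (-0.05 ± 0.11, adjusted p = 0.739). Atp5a1, the alpha subunit beside it, had 42803, 47880 and 49269 counts in old nerves, against 50659, 48206 and 49737 in young nerves (-0.09 ± 0.10, adjusted p = 0.521). Atp5d, the delta subunit, had 5110, 5329 and 6359 counts in old nerves, against 5791, 5929 and 6229 in young nerves (-0.10 ± 0.09, adjusted p = 0.425). The ages overlapped in all 3, and among the fits with 1 library left out Atp5d was called lower in the one without old 3.

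Atp5c1, the rotating gamma subunit, had 13340, 13694 and 13845 counts in old nerves, against 10944, 10478 and 11102 in young nerves. All old libraries lay well above the young ones, with a log2 fold change of 0.33 ± 0.06 (adjusted p = 0.00989). Its call was lost without young 2, where the adjusted p was 0.05003, and with the trends removed it stood at -0.02. Atp5b counts were 457%, 507% and 503% of those of Atp5c1 in old nerves, against 652%, 635% and 626% in young nerves, a ratio chosen after the values were seen. The transcripts are 1916 and 1166 nt long, so this ratio moves with length as well. Atp5j, coupling factor 6 of the stalk, had 7345, 7534 and 7027 counts in old nerves, against 6064, 5607 and 6275 in young nerves (0.29 ± 0.07, adjusted p = 0.0187). It overlaps Gabpa on the other strand, and it kept its call in 3 of the 6 fits with a library left out, those without old 1, old 3 or young 3.

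The 3 genes Atp5g1, Atp5g2 and Atp5g3 encode the same mature c subunit with different targeting sequences. Atp5g2 had 1146, 1039 and 1118 counts in old nerves, against 794.5, 729.4 and 919.5 in young nerves (0.44 ± 0.10, adjusted p = 0.0180), with no overlap. Atp5g3 carried most c subunit transcripts, at 11428, 13129 and 12626 counts in old nerves, against 11412, 10517 and 10748 in young nerves (0.18 ± 0.08, adjusted p = 0.107). Atp5g1 had 1248, 1326 and 1728 counts in old nerves, against 1355, 1092 and 1424 in young nerves (0.15 ± 0.15, adjusted p = 0.477). Atp5g2 was 10.03%, 7.91% and 8.85% of Atp5g3 in old nerves, against 6.96%, 6.94% and 8.56% in young nerves, which overlapped. Atp5g2 and Atp5g1 share 57.5% and 66% of their 50-base stretches with pseudogene transcripts, so their counts are uncertain, and Atp5g2 kept its call in the fits without old 2, old 3 or young 3. Among 3 assembly genes of complex V, Atpaf1, a chaperone of the beta subunit, was lower (-0.50 ± 0.12, adjusted p = 0.0171). Atpaf1 had 1396, 1649 and 1907 counts in old nerves, against 2206, 2406 and 2322 in young nerves, with no overlap. The fits without young 2 and without young 3 lost the call, and removal of both trends gave -0.59 (adjusted p = 0.0189).

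Among the 4 genes named for a complex without being counted as its subunits, Cox7a2l was called with every library left out in turn. Cox7a2l, which takes part in joining complexes III and IV into supercomplexes, had 5670, 4746 and 5247 counts in old nerves, against 3767, 3640 and 3914 in young nerves (0.47 ± 0.08, adjusted p = 0.00771). Its groups were far apart, and it was also the 1 gene of the 89 called without both young 1 and old 2. With the trends removed it was not called (0.12, adjusted p = 0.302). Ndufa4, now counted with complex IV, had 10536, 11188 and 12228 counts in old nerves, against 9242, 8699 and 9309 in young nerves (0.32 ± 0.08, adjusted p = 0.0206). Ndufa4l2, its paralog known from low oxygen, had 31.7, 64.5 and 65.8 counts in old nerves, against 80.9, 83.6 and 45.1 in young nerves, which overlapped (-0.39 ± 0.38, adjusted p = 0.455). Ndufa4l2 was 0.301%, 0.577% and 0.538% of Ndufa4 in old nerves, against 0.875%, 0.960% and 0.485% in young nerves.

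Counts were also summed over the genes of each complex. Complex IV summed to 67588, 69339 and 72919 counts in old nerves, against 59658, 55880 and 60820 in young nerves, without overlap. Complex I was separate as well, at 118866, 125096 and 127288 counts in old nerves, against 109632, 102684 and 109523 in young nerves. The sums of complexes II, III and V, in normalised counts, overlapped between the ages, with complex V at 165938, 182830 and 184148 counts in old nerves, against 177812, 166110 and 175333 in young nerves. As a share of all normalised counts of a library, complexes II and III did not overlap. Complex II made up 0.0913% to 0.0981% in old nerves and 0.0855% to 0.0900% in young nerves, and complex III 0.107% to 0.113% in old nerves and 0.0951% to 0.102% in young nerves. Complex V still overlapped, at 0.454% to 0.501% in old nerves and 0.423% to 0.463% in young nerves.

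**Figure D4:**
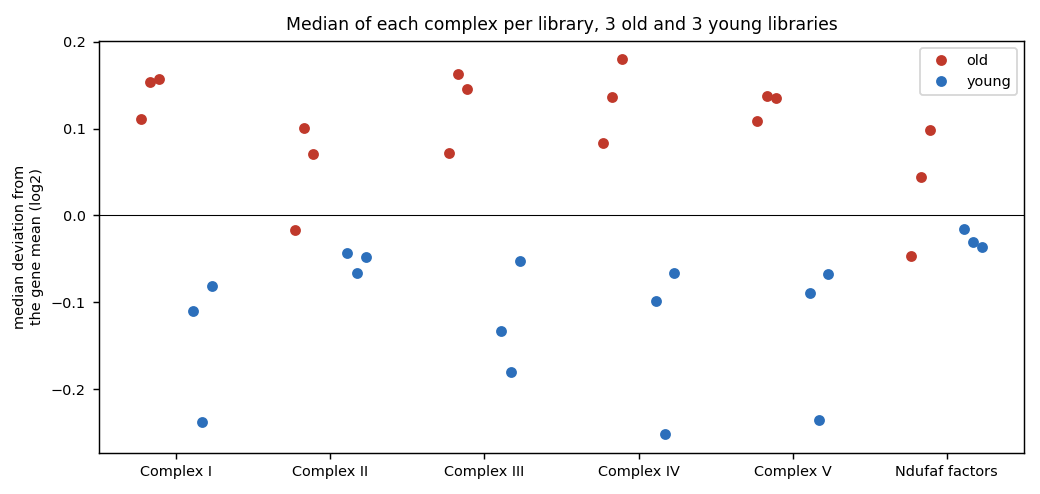
Median over the genes of each complex of the log2 deviation from the gene's own mean (y axis), 1 point per library, old left of young. The 3 old libraries lie above the 3 young ones in complexes I to V, young 2 is the lowest library in each of these, and the Ndufaf factors overlap.

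Among regulators of mitochondrial gene expression more genes were lower than higher. Of 12 genes 5 were lower in old nerves and 1 higher, with a median log2 fold change of -0.20. Over all genes tested, 18.7% were lower and 15.9% higher (34.6% in all). With the trends removed 2 of the 12 were lower and 0 higher, against 13.5% and 10.4% of all genes. Pprc1, a coactivator of the PGC-1 family, had 459.9, 403.3 and 515.4 counts in old nerves, against 929.9, 908.3 and 1057 in young nerves (-1.07 ± 0.12, adjusted p = 0.00445). Ppargc1b, which encodes PGC-1 beta, had 198.8, 279.9 and 325.9 counts in old nerves, against 534.0, 582.9 and 567.1 in young nerves (-1.09 ± 0.18, adjusted p = 0.00729). Both stayed lower with the trends removed, at -0.75 and -0.83. Polrmt, the mitochondrial RNA polymerase, fell by 0.63 on the log2 scale (adjusted p = 0.00719), and Esrra, an orphan nuclear receptor that works with PGC-1, fell by 0.43 (adjusted p = 0.0196). Ppargc1a, the best known coactivator of mitochondrial biogenesis, had 5825, 5930 and 6801 counts in old nerves, against 7689, 8575 and 7488 in young nerves (-0.36 ± 0.09, adjusted p = 0.0207). All 5 separated the ages, but Polrmt, Esrra and Ppargc1a were not called with the trends removed (adjusted p = 0.0540, 0.0849 and 0.0928). Pprc1, Ppargc1b and Polrmt kept their calls with any 1 library left out, Esrra lost its call without any single young library, and Ppargc1a kept it in the fits that left out old 3 or young 3. Tfb2m, a transcription factor of mitochondrial DNA, was higher (0.34 ± 0.07, adjusted p = 0.0132), though not without young 2 (adjusted p = 0.0527) or with the trends removed (0.12, adjusted p = 0.321). Tfam, which packages mitochondrial DNA, and Nrf1 were not called, at 0.18 ± 0.09 (adjusted p = 0.142) and 0.01 ± 0.10 (adjusted p = 0.961).

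**Figure D5:**
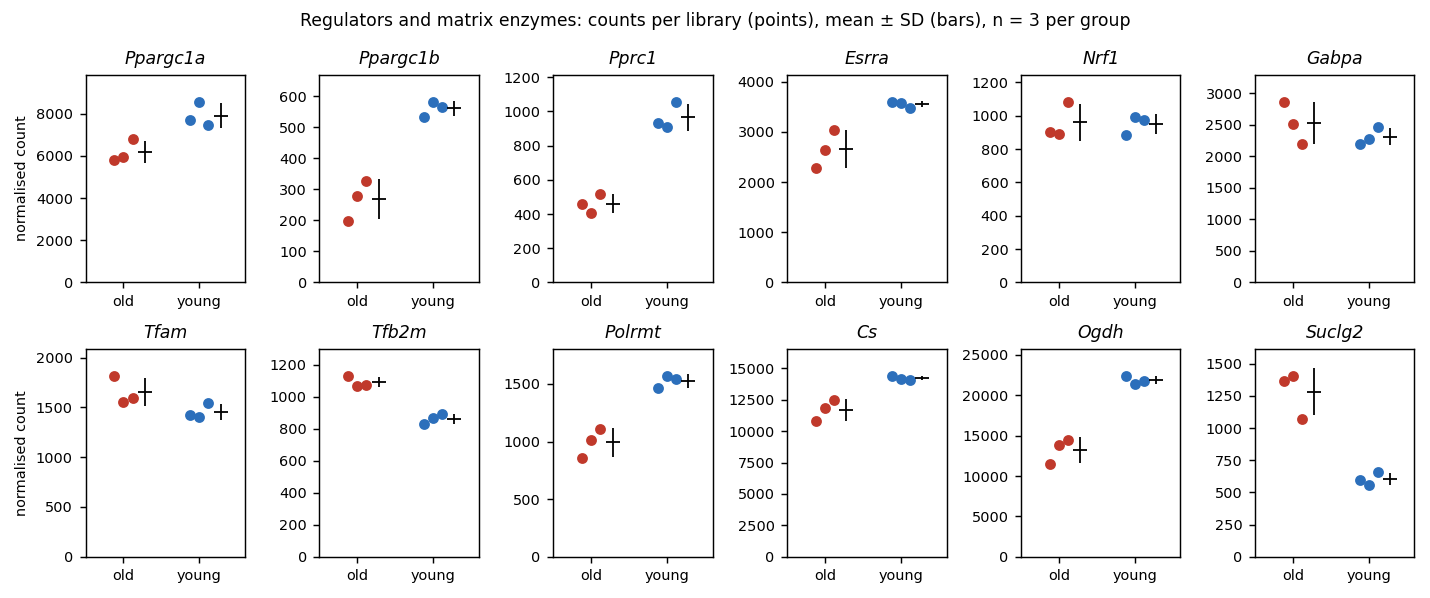
Normalised counts (y axis, from 0) of 9 regulators and 3 citric acid cycle genes in each library, old left of young, with mean ± SD bars (n = 3 each). Ppargc1a, Ppargc1b, Pprc1, Esrra, Polrmt, Cs and Ogdh lie lower in all 3 old libraries, Tfb2m and Suclg2 lie higher, and Nrf1, Gabpa and Tfam are not called.

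Citric acid cycle genes, which supply the chain with NADH and succinate, had 2 higher and 3 lower of 14, near the 34.6% called among all genes, and a median log2 fold change of 0.05. Ogdh, the first enzyme of the 2-oxoglutarate dehydrogenase complex, had 11464, 13821 and 14451 counts in old nerves, against 22391, 21398 and 21736 in young nerves (-0.73 ± 0.10, adjusted p = 0.00538). Suclg2, a succinyl-CoA ligase subunit, had 1369, 1405 and 1073 counts in old nerves, against 599.9, 560.3 and 656.3 in young nerves (1.07 ± 0.12, adjusted p = 0.00464). These were the strongest fall and rise of the list, and both passed with the trends removed and with any 1 library left out. Cs, citrate synthase, was lower (-0.28 ± 0.08, adjusted p = 0.0276), as was Dlst, while Idh2 was higher (0.44 ± 0.11, adjusted p = 0.0189). Cs and Dlst kept their calls in 1 of the 6 fits with a library left out, and Idh2 lost its call without any single young library and with the trends removed (0.37, adjusted p = 0.0544). Of 15 genes for electron carriers and ubiquinone synthesis 1 was called higher, Coq7 (0.43 ± 0.10, adjusted p = 0.0148, lost without either of young 1 and young 2), and Cycs, cytochrome c, was not (0.10 ± 0.06, adjusted p = 0.213). Coq7 was not called with the trends removed (0.11, adjusted p = 0.419), while Coq8a and Coq8b were called higher and Cyc1 and Pdss1 lower. Of 15 genes for outer membrane pores, carriers and protein import 2 were higher (Vdac2 and Vdac3) and 1 was lower (Tomm40). All 3 lost their calls without any single young library, and Vdac2 and Tomm40 also lost them without old 1 or old 2. Vdac2 (0.03, adjusted p = 0.713) and Vdac3 (-0.14, adjusted p = 0.234) were not called with the trends removed, and Tomm40 stayed lower (-0.36, adjusted p = 0.0403). None of 13 listed genes for mitochondrially encoded subunits was found by symbol in the deposited table, so they were not analysed here.

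Some small transcripts have many pseudogenes, which can split reads. Of the 89 genes 35 share at least 1 stretch of 50 bases with an annotated pseudogene transcript, and 10 share more than 25%. Those 10 had a median of 767 counts per kilobase over all libraries, and the 54 genes with no shared stretch had 3977. Across the 89 genes, Spearman's rho between the shared percentage and the level per kilobase was only -0.16. Cox5b and Cox4i2 share no stretch and were also low, at 168 and 86.7 per kilobase. Whether shared stretches lower the counts was not tested. Ndufs5, with 41.2% shared, had 59.2, 36.1 and 39.6 counts in old nerves, against 32.9, 25.6 and 33.0 in young nerves. Ndufa12, Atp5l, Atp5h, Uqcrb, Cox7c and Ndufb4 are in the same position, so their low levels and their fold changes are uncertain. Apart from this, 10 of the 89 genes overlap another gene, each on the other strand.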

How the data were processed

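RNA was sequenced from the auditory nerves of 3 old and 3 young mice. According to the labels' protocols, nerves were dissected out of the cochlea, RNA was checked for degradation, and a TruSeq RNA kit was used (strand marking: not given in the sources used here). In the submitters' processing notes stand TopHat2, Partek and DESeq2 with the build mm10, without versions or settings. Per gene, the deposited table gives a signal, which the authors obtained as read counts over a size factor of the library (normalised counts). Per the file headers, it also holds the authors' own p-value, step-up FDR (missing for 342 genes, none of them among the 89) and a signed fold change score of old over young. The columns headed as control were read as young because the comparison in the file headers is old against young.

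Low values in each column are whole multiples of the value of 1 read (0.940 to 1.10), and dividing by it gave whole reads for 99.92% to 99.97% of values (tolerance 0.1). A size factor moves with library size and the mix of transcripts, so small shifts of many genes depend on it. Each gene was tested two-sided in limma (3.58.1; log2(value + 1), trended empirical Bayes), with Benjamini-Hochberg adjustment over 15882 genes and a threshold of 0.05. A filter on recovered reads (filterByExpr of edgeR, minimum count 10 and minimum total 15) came first, and all 89 genes passed it. Fold changes are on the log2(value + 1) scale, which understates the change of low genes, and ± after them is the SE. With 3 animals against 3 an exact permutation test of 1 gene cannot go below p = 0.1.

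Alternatives were edgeR (4.0.16), on whose recovered reads 5418 genes were called, DESeq2 (1.42.0), other scalings, filters and pseudocounts, left-out libraries and the replicate number as a block. Another alternative removed trends, fitted per library with mgcv (1.9.3), in length and GC content. Transcripts came from GENCODE M21, as the shortest coding one matched to RefSeq or else the longest, for 14896 tested genes (93.8%). Levels per kilobase use the same lengths. The limma, edgeR and DESeq2 fits were tested on simulated counts that held no length or GC trend. Trend removal, the replicate block and the other alternatives were not simulated.

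The members, gene lists and marker lists were chosen with earlier results of these data known. Named genes are, in each complex, the 3 with the smallest adjusted p in each direction, the most abundant one per kilobase, isoform pairs and opposite calls, and from other lists the 3 with the smallest p and 7 set genes. Other genes were named after their values were seen, among them Ndufa13, Ndufs7, Ndufs1, Uqcrc2, Uqcrfs1, Cox6c and Cox7a2l. Overlapping genes and genes with pseudogenes are uncertain. For 1 gene, included in the counts, no values are reported here.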

Additional observations from a re-analysis of the deposited data

How the results depend on the processing

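The counts of called genes depended on single libraries, among these genes and among all genes. Over all genes the fits with 1 library left out called 1159 to 2757 higher and 1430 to 3360 lower, against 2524 and 2969 in the main fit. With 1 library left out, 9 to 34 subunit genes were higher and 0 to 2 lower; by complex the higher genes numbered 8 to 17 in complex I, 0 to 2 in II, 0 to 4 in III (0 to 1 lower), 1 to 3 in IV, 0 to 8 in V (0 to 1 lower) and 0 to 2 among the Ndufaf factors. Without both young 1 and old 2, whose deviations correlated at 0.40, limma called 0 subunit genes in either direction in any complex (32 higher and 1 lower at an unadjusted p under 0.05). With the replicate block, under which 1078 of all genes were higher and 1633 lower, 10 subunit genes were higher and 0 lower (7 in complex I, 0 in II and III, 1 in IV, 2 in V and 0 of the Ndufaf factors). No sign of pairing by number was seen: same-number correlations were -0.29, -0.41 and -0.05, and no old library correlated best with its own number. With deviations taken from means of 3 libraries, this check cannot exclude a batch shared by libraries of the same number.

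Removing length and GC trends turned the medians: -0.068 in all subunits, -0.037 in complex I, -0.047 in II, -0.072 in III, -0.12 in IV, -0.068 in V and -0.23 in the Ndufaf factors, with or without the block. It left 2 subunit genes higher and 2 lower (2 and 1 in complex I, 0 higher in II to V) and 0 higher and 2 lower Ndufaf genes; with the block limma called 0 and 0 (3 and 3 at an unadjusted p under 0.05), and 1 lower Ndufaf gene. It also turned Atp5c1 (-0.025), Atp5j (-0.099), Cox6b1 (-0.13), Cox7a2 (-0.13), Ndufa4 (-0.23), Ndufc2 (-0.081), Sdhd (-0.11) and Uqcrh (-0.078), with or without the block, and 21 of the 42 genes called higher in all, Uqcrc2 (-0.054) and Cox6c (-0.19) among them. Trends on the longest transcript, an alternative added after seeing the data, gave 2 higher and 8 lower (1 and 4 in complex I, 0 higher in II and III, 0 and 2 in IV, 1 and 1 in V) and 0 and 2 among the Ndufaf factors. Its medians were -0.13, -0.11, -0.087, -0.15, -0.19, -0.078 and -0.27 in the same order, and it turned Atp5g3 (-0.32), Atp5j (-0.064), Cox4i1 (-0.050), Cox6b1 (-0.22), Cox7a2 (-0.23), Ndufa4 (-0.33), Ndufc2 (-0.17), Sdhd (-0.20), Uqcr10 (-0.0091) and Uqcrh (-0.17); Cox6c, Ndufb3 and Ndufb5, higher in the deposited values, were called lower. The cause was not tested. Upper-quartile scaling raised the called genes of complex IV to 8. Under edgeR, DESeq2, TMM scaling, no filter, other pseudocounts and the authors' own FDR, no median changed sign and no count moved by over 1.5 times. Depth limits the genes with few reads, such as Ndufs5, Cox4i2 and Ndufa4l2.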
